A study of Mus musculus with 2 samples.

Results

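The genes followed here were Rbfox1, Rbfox2, Rbfox3, Elavl2, Elavl3, Elavl4, Nova1, Nova2, Celf4 and Ptbp2, which encode RNA-binding proteins of neurons. They are 10 of the 21938 protein-coding genes of GENCODE vM21 on chromosomes 1 to 19, X and Y. Their CTCF peaks were those of the authors' optimal set with a summit in the gene or within 50 kb of either end, which gave 161 of the set's 62686 peaks. CTCF is the zinc finger protein that holds the feet of chromatin loops, and ChIP-seq recovers the DNA it is bound to. The tissue was hindbrain of B6NCrl mice on postnatal day 0, pooled over several dissections and pulverised. The labels name 1 group of 2 libraries, biological replicates 1 and 2, which cite the same pooled tissue, so that differences between them may be only technical. There is no second condition, and every comparison below is between places in the genome. Peaks of one list share their libraries and are not replicates, so they are described without tests. Peak files hold no expression values, so the tissue label was not checked against marker genes.

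The 10 proteins shape which exons are kept and how long messages last as neurons mature. Rbfox proteins bind a short GCAUG element beside alternative exons, and Rbfox3 is the antigen known as NeuN, a marker of mature neurons. Elavl2, Elavl3 and Elavl4, also called HuB, HuC and HuD, bind AU-rich stretches and stabilise neuronal messages. Nova1 and Nova2 control the splicing of synaptic transcripts, Celf4 binds messages of excitatory neurons, and Ptbp2 takes over from its relative Ptbp1 as progenitors become neurons. Most of these genes are long and have several annotated starts, which give transcripts with different first exons. Starts within 1 kb of each other were joined to 1 start site, which gave 49 start sites in the 10 genes. A peak with its summit within 1 kb of any start of its gene is called a start-site peak, and all other peaks inside the gene are called other intragenic peaks.

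The sequences below are those of motif matches near CTCF peak summits at these genes. Peaks without a match are not shown, and binding to the matched bases themselves was not tested. The first set holds the start-site peaks with a match to the CTCF core motif, a 14-base consensus, within 50 bp of the summit and with at most 2 mismatches. The second set holds the strongest other intragenic peak with a match in Rbfox1, Rbfox2, Rbfox3, Elavl2 and Elavl4. Celf4 also had 11 such peaks, with signals up to 386.0, and its sequences are not reported here. Capitals mark the match, read 5′ to 3′ on the strand named, with 13 bases on each side, from the GRCm38.p6 assembly, on which mm10 is based.
Rbfox1, second start site, chr16:6348650-6348689, plus strand: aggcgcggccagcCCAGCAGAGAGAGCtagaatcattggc
Rbfox3, first start site, chr11:118911447-118911486, plus strand: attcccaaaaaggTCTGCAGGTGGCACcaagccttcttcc
Rbfox3, start site 3, chr11:118907496-118907535, plus strand: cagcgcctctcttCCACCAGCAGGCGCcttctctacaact
Rbfox3, last start site, chr11:118508060-118508099, plus strand: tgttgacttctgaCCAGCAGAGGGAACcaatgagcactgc
Rbfox3, last start site, chr11:118506713-118506752, minus strand: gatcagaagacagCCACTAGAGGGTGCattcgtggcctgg
Elavl4, first start site, chr4:110351936-110351975, plus strand: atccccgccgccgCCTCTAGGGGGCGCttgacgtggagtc
Nova2, start site, chr7:18925263-18925302, plus strand: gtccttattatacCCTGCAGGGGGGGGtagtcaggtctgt
Rbfox1, other intragenic, chr16:6839785-6839824, plus strand: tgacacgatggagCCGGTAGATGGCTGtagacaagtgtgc
Rbfox2, other intragenic, chr15:77225429-77225468, plus strand: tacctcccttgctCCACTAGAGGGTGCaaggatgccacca
Rbfox3, other intragenic, chr11:118739050-118739089, minus strand: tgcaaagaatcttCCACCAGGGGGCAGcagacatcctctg
Elavl2, other intragenic, chr4:91387879-91387918, plus strand: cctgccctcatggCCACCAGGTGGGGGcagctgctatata
Elavl4, other intragenic, chr4:110324104-110324143, plus strand: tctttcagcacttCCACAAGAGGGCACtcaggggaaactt

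The peaks were spread unevenly over the genes. Rbfox3 had 42, Rbfox1 36, Celf4 23, Rbfox2 22 and Nova2 16, while Elavl3 had 8, Elavl2 7, Elavl4 6, Nova1 1 and Ptbp2 none. Of the 161 peaks, 14 were start-site peaks, 108 were other intragenic peaks and 39 lay in the flanks. Start-site peaks were found in 6 of the 10 genes, against a background of 39.8% of all protein-coding genes. The 6 were Rbfox1, Rbfox2, Rbfox3, Elavl2, Elavl4 and Nova2. This share by gene does not allow for the number of start sites, and by start site it was 22.4% (background 21.3%). Other intragenic peaks were found in 7 genes (background 42.9%), and 9 genes had at least 1 peak in the gene or its flanks (background 87.7%). These backgrounds cover genes of all lengths, with a median of 17.4 kb, against 149.1 kb for the 10 genes. A peak inside the gene was present in 43.5% of protein-coding genes under 50 kb, in 84.3% of those of 50 to 100 kb, in 92.8% at 100 to 200 kb and in 97.4% at 200 to 500 kb. Read against these shares, the count of 7 does not stand above genes of like length, and Nova1 and Ptbp2 are the members over 50 kb with no peak inside.

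**Figure D1:**
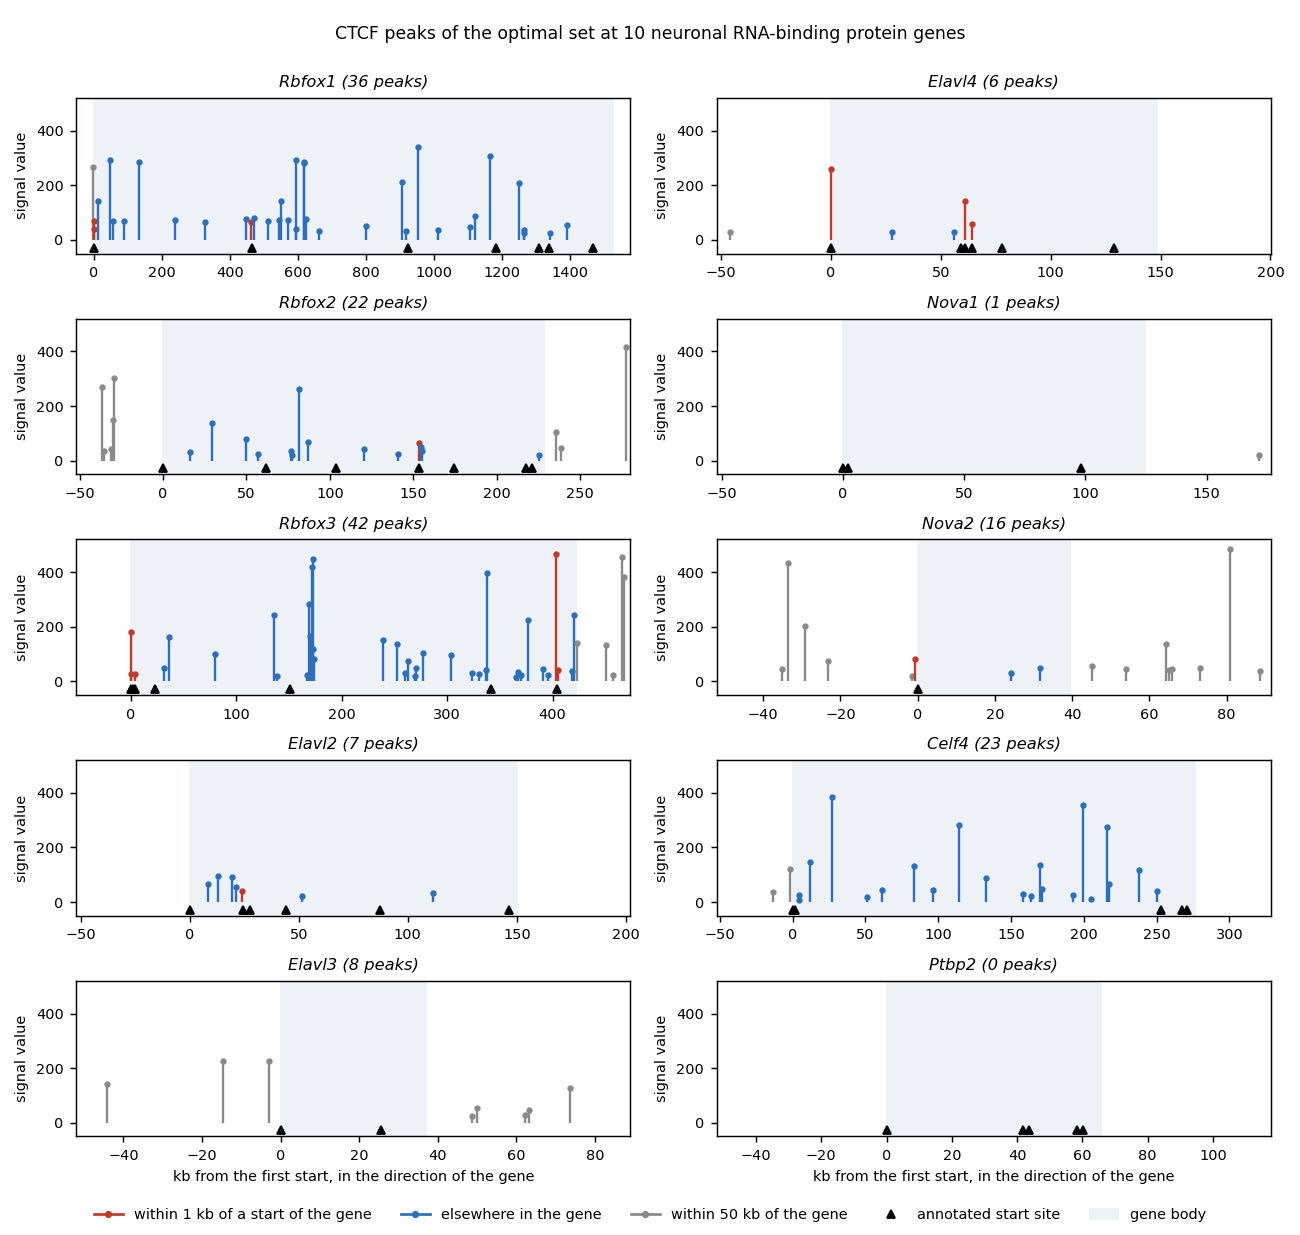
Optimal CTCF peaks at the 10 genes. The x axis gives kb from the first start in the direction of the gene, the y axis the deposited signal value, triangles the annotated start sites and the shaded area the gene. Rbfox3 has 42 peaks in the gene and its flanks, of which 36 are inside the gene. Celf4 has 21 inside the gene and none at its start sites, and Ptbp2 has none.

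The signal value is the authors', written by their peak caller without a stated scale, and it served to rank peaks within the list. Over all optimal peaks its median was 73.9, and 23.7% of peaks were above 200. Of the 161 peaks at these genes 34 (21.1%) were above 200, and their median was 65.8. Each peak was also given a rank in each library, as the strongest of that library's 300000 peaks that covered the summit. Of the 161 summits, 159 were covered in both libraries, and 133 (82.6%) ranked within the strongest 62686 of both, against 82.4% of all optimal peaks. For the 159 no share over all optimal peaks is given, and the authors derived that set from these lists.

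Rbfox1 is on chromosome 16 from 5885355 to 7411526, on the plus strand, and is 1526 kb long with 7 start sites. The first start site had 2 peaks, with signals of 69.4 (81 bp from the nearest start, in an exon) and 39.7 (521 bp upstream). Neither had a motif match. The second start site, 463.8 kb further along, had 1 peak with a signal of 65.8 and ranks of 32178 and 33144 in libraries 1 and 2. Its motif is the first sequence shown above. The remaining 5 start sites had no optimal peak. These 2 occupied start sites were CpG-rich, with observed-to-expected CpG ratios of 0.685 and 0.662 in about 1 kb around the start, and the 5 others had ratios from 0.145 to 0.344.

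Away from its starts Rbfox1 had 32 peaks, all in introns, with a median signal of 73.8 and a range from 24.0 to 338.7. The strongest lay 954.4 kb from the first start, with ranks of 5369 and 5174, and its match had 2 mismatches. The next were at 1164 kb (signal 306.3, ranks 7816 and 6345) and 46.6 kb (signal 291.5, ranks 7425 and 8780). All 3 start-site peaks of Rbfox1, with a median of 65.8, lay within the range of its other intragenic peaks, of which 9 were above 200. The direction of the motif was counted between consecutive start sites. From start site 1 to 2, 3 matches lay on the gene's strand and 5 on the opposite one, and from start site 2 to 3 there were 7 and 3. From start site 3 to 4 there were 4 on the gene's strand and none opposite. Upstream, 3.4 kb before the first start, stood a peak with a signal of 266.0 and no match. No optimal peak lay within 50 kb of the gene's end.

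Rbfox2 is on chromosome 15 from 77078990 to 77307004, on the minus strand, with 7 start sites over 228.0 kb. The only start-site peak lay 90 bp from start site 4, where 6 coding transcripts begin, 153.2 kb into the gene. It had a signal of 63.4, ranks of 41646 and 28218, and no motif match. The next peaks just outside the 1 kb limit lay 1055 and 1533 bp from the same start site, with signals of 48.8 and 35.4 and a match each. The first start site, the most CpG-rich of all 49 (ratio 0.947), had no optimal peak. The pooled list, which holds 251251 peaks before the selection by the irreproducible discovery rate (IDR), had 1 peak there with a signal of 14.3.

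The 13 other intragenic peaks of Rbfox2 had a median signal of 36.7. The strongest lay 81.6 kb from the first start, with a signal of 264.0 and ranks of 9991 and 9787, and its motif is shown above. The next had signals of 136.3 at 29.4 kb and 78.1 at 49.4 kb. The 8 flanking peaks of Rbfox2 had a median signal of 126.8, and 3 of them were above 200. All 8 had the motif, as did all 5 of Rbfox3, against 74.0% of flanking peaks over all protein-coding genes. The strongest upstream lay 29.7 kb before the gene (signal 301.1, ranks 7768 and 6708), and shared its library 1 peak with a summit beside it that had a signal of 150.2. The strongest downstream lay in the neighbouring gene Mb, which encodes myoglobin, with a signal of 417.0 and ranks of 1127 and 2780.

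Rbfox3 is on chromosome 11 from 118489762 to 118911597, on the minus strand, and is 421.8 kb long with 7 start sites. It had 5 start-site peaks at 3 of them. The strongest peak of the whole gene lay 725 bp from the last start site, 403.5 kb from the first start. Its signal was 467.1, its ranks were 647 and 656 and its match had 1 mismatch. The first start site had peaks of 179.1 (ranks 15316 and 18840) and 28.1. Start site 3 had 25.6, and the last start site had a further peak of 41.3. The second start site, where 4 coding transcripts begin and the CpG ratio is 0.752, had no optimal peak. Its strongest pooled peak had a signal of 19.3.

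Rbfox3 also had 32 other intragenic peaks, with a median signal of 78.5 and a range from 15.5 to 449.5. Of these, 7 lay within 6.73 kb of intron, between 166.8 and 173.6 kb from the first start. No other stretch of the 10 genes had more than 3 summits with gaps of at most 2 kb. How often such groups occur over all genes was not computed. The strongest of the 7, at 449.5 with ranks of 936 and 1193, had a motif without mismatch on the gene's strand, shown above. It lay 172.5 kb from the first start, and the next, at 419.6 with ranks of 1681 and 1808, lay at 171.4 kb with its motif on the same strand. The next of the other intragenic peaks in strength, at 398.3 with ranks of 1569 and 3731, lay 3827 bp from the sixth start site and its motif faced the other way. Downstream, the strongest flanking peak had a signal of 453.7 and ranks of 1004 and 763, inside C1qtnf1, a gene for a secreted protein. No flanking peak lay upstream.

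**Figure D2:**
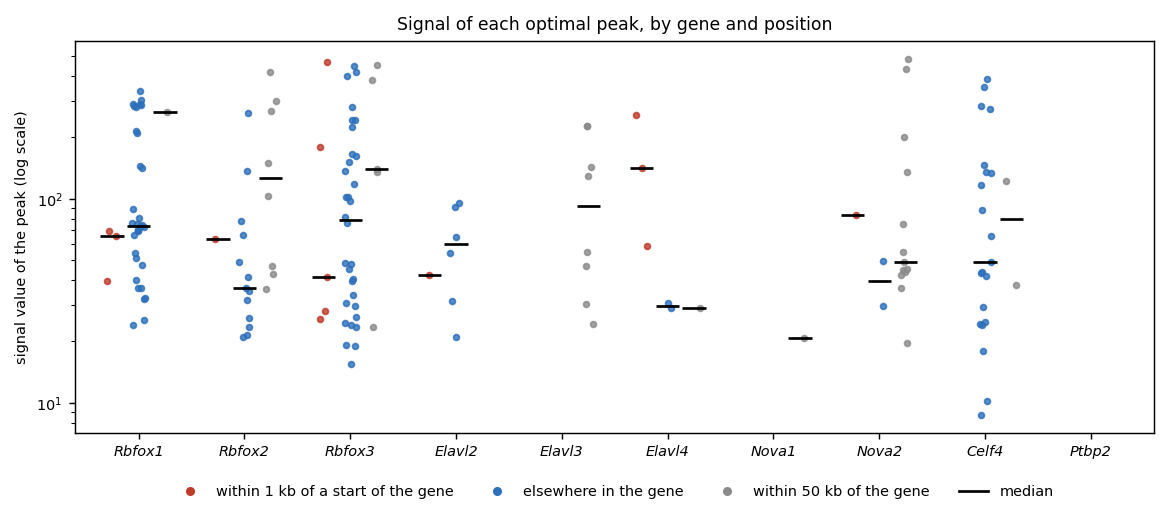
Signal of each of the 161 peaks by gene (log scale), split into start-site peaks (red), other intragenic peaks (blue) and flanking peaks (grey), with the median of each as a bar. Start-site peaks overlap the other intragenic peaks in Rbfox1, Rbfox2, Rbfox3 and Elavl2, and lie above them in Elavl4 and Nova2.

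Elavl4 is on chromosome 4 from 110203722 to 110351909, on the minus strand, with 6 start sites over 148.2 kb. Of its 6 start sites 3 had 1 peak each, and these made up 3 of the 6 peaks of its window. The first start site had a signal of 258.2 with ranks of 9286 and 11970, 66 bp upstream of the start. Start site 3 had 141.4, 62 bp away, with ranks of 19876 and 21867, and start site 4, where 6 coding transcripts begin, had 59.0 with ranks of 34526 and 37484. The other 2 intragenic peaks had signals of 30.8 and 29.0, so that all start-site peaks of Elavl4 were stronger than both. The 1 flanking peak, at 29.3, lay 230 bp from a start of Agbl4, upstream. At the first start the peak fell into the RefSeq promoter, which is shown because the strongest Elavl4 peak lies in it. Its summit is base 187 of the 300 below, and the capitals at bases 200 to 213 are the motif, which reads on the strand opposite to the gene.
Elavl4 promoter, chr4:110351862-110352161, minus strand: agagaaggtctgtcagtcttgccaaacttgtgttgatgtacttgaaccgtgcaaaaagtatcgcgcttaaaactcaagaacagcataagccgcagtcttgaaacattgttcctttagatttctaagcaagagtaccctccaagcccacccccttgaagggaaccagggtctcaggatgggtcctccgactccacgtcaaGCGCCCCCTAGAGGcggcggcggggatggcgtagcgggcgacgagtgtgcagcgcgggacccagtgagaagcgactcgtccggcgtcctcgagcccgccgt
Of all 32851 promoters of that length in the RefSeq table, 14.4% held such a match on either strand. The table had promoters for 8 of the 10 genes. The peaks at start sites 3 and 4 of Elavl4 had no match within 50 bp.

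Elavl2, on chromosome 4 from 91250763 to 91400785 on the minus strand, had 7 peaks in 150.02 kb, all inside the gene. The only start-site peak lay 126 bp from the second of 6 start sites, with a signal of 42.2, ranks of 50584 and 37057 and no match. Of the 7, 5 lay between the first and the second start site, a stretch of 24.3 kb. The strongest of the other intragenic peaks had signals of 94.9 (ranks 26432 and 28450), 91.4 and 65.0. No peak lay in the flanks, and the nearest outside the gene were 109.4 kb upstream and 166.6 kb downstream.

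Elavl3 is the shortest of the 10, at 37.0 kb on chromosome 9 from 22015005 to 22052023, on the minus strand. It had no optimal peak at its 2 start sites or elsewhere in the gene, and 8 in the flanks. The nearest upstream lay 3.0 kb before the first start, with a signal of 226.3, ranks of 12747 and 12294 and its motif on the strand of Elavl3. It was also the strongest upstream. All 5 downstream peaks lay within 1 kb of starts of the neighbours Prkcsh, Ccdc151 and Rgl3, and the strongest of them had a signal of 128.7. At the first start of Elavl3 the pooled list had 3 peaks, of which the strongest reached 22.6.

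The Nova genes differed in their surroundings. Nova2, on chromosome 7 from 18925888 to 18965319 on the plus strand, had 16 peaks, of which 13 were in the flanks. The start-site peak lay 605 bp upstream of the only start site, with a signal of 83.4, ranks of 29979 and 28082 and its motif on the gene's strand. Just beyond the 1 kb limit, 1374 bp upstream, lay a peak of 19.6. The 2 other intragenic peaks had signals of 49.7 (in an exon) and 29.7. The strongest flanking peaks lay at neighbours. Upstream, a peak of 432.5 with ranks of 1731 and 1144 was 4 bp from a start of Ccdc61. Downstream, a peak of 486.3, the highest value of the 161, with ranks of 511 and 365, lay in Irf2bp1.

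Nova1, on chromosome 12 from 46694517 to 46818929 on the minus strand, had no optimal peak at its 3 start sites or elsewhere in its 124.4 kb. The 1 peak of its window lay 47.1 kb beyond the gene's end, with a signal of 20.8 and ranks of 86807 and 64404. The nearest upstream peak was 345.7 kb away, so that 517.2 kb between neighbouring summits were without an optimal peak. Among 1494 protein-coding genes of 100 to 200 kb, 72 had at most 1 peak in the gene and flanks.

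Celf4, on chromosome 18 from 25477632 to 25754157 on the minus strand, had 21 intragenic peaks in 276.5 kb and none at its 5 start sites. All 21 lay in introns between start sites 2 and 3. The strongest had a signal of 386.0 with ranks of 2122 and 4242, 27.2 kb from the first start, and a motif without mismatch. The next were 353.9 at 199.3 kb (ranks 3958 and 5284) and 283.3 at 114.5 kb (ranks 8920 and 8399). Of the 11 intragenic peaks of Celf4 with a motif, 9 had it on the strand opposite to the gene and 2 on the gene's strand. Inside the 10 genes together the motif was on the gene's strand at 50.7% of peaks with 1 strand assigned. No share over all genes stands beside this count of Celf4. The weakest peaks of the 161 were also here, at 8.75 and 10.2, and for both no peak of library 2 covered the summit. The strongest upstream peak, at 122.0, lay 1383 bp before the first start, just outside the 1 kb limit. No peak lay downstream within 50 kb.

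Ptbp2, on chromosome 3 from 119718742 to 119784466 on the minus strand, had no optimal peak in its 65.7 kb or within 50 kb of either end. The nearest summits were 212.3 kb upstream (signal 28.4) and 79.9 kb downstream (signal 27.9), 357.9 kb apart. Of all protein-coding genes 12.3% had no peak in the gene and flanks. Among the 2515 genes of 50 to 100 kb there were 83 (3.30%). The pooled list had 11 peaks in the Ptbp2 window, with a highest signal of 24.1, and the lists of libraries 1 and 2 had 12 and 19. Of these, 1 peak of library 1 and 0 of library 2 were among the strongest 62686 of their list.

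The start sites were then set against the rest of the genes. Around the starts the 14 peaks amounted to 13.6 per 100 kb (exact Poisson interval 7.45 to 22.9), and the 108 others to 3.69 per 100 kb of the remaining gene sequence (3.03 to 4.46). Over all protein-coding genes, these members included, the densities were 11.9 (11.7 to 12.1) and 2.80 (2.77 to 2.83). The density around starts was thus 3.69 times that of the rest in the 10 genes, and 4.25 times over all genes. The intervals are 95% intervals for counting error and treat peaks as independent, which neighbouring peaks may not be.

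Of the 49 start sites, 11 had a peak (22.4%, background 21.3%). The first start site was occupied in 4 genes, Rbfox1, Rbfox3, Elavl4 and Nova2 (background 32.8%), and 7 of 39 later start sites were occupied (17.9%, background 11.8%). CpG-rich start sites, with a ratio over 0.6, numbered 14, of which 5 were occupied (background 51.2%). Of the 35 others 6 were occupied (background 11.8%). The CpG-rich first starts of Rbfox2, Elavl3, Nova1, Celf4 and Ptbp2 were without an optimal peak.

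**Figure D3:**
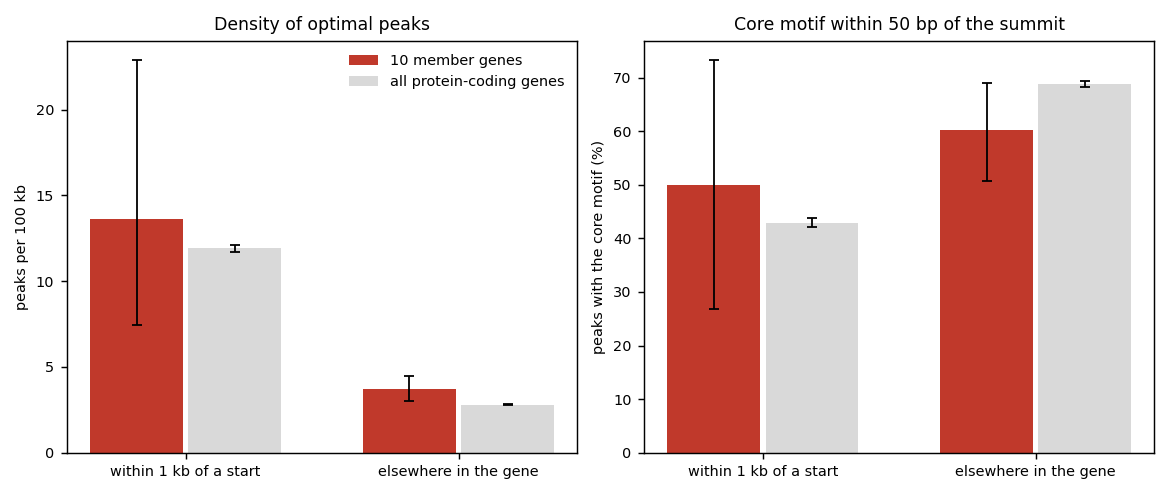
Density of optimal peaks per 100 kb (left, exact Poisson 95% intervals) and share of peaks with the CTCF core motif (right, Wilson 95% intervals), around starts and elsewhere in the gene, for the 10 genes (red) and all protein-coding genes (grey). Density is higher around starts in both, at 13.6 and 11.9 per 100 kb, and the motif intervals of the 10 genes overlap.

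In strength the start-site peaks and the other intragenic peaks overlapped over nearly their whole range. Their median signals were 64.6 (range 25.6 to 467.1) and 66.0 (8.75 to 449.5). Order-statistic 95% intervals of these medians overlapped, from 39.7 to 179.1 and from 47.2 to 76.0. They treat peaks as independent and give the uncertainty of each median, so their overlap is no test of a difference. Over all protein-coding genes the medians were 59.1 and 70.7. A motif match was found at 7 of 14 start-site peaks (50%, Wilson interval 26.8 to 73.2) and at 65 of 108 other intragenic peaks (60.2%, 50.8 to 68.9). The intervals overlap. The shares over all protein-coding genes were 42.9% and 68.7%, and over all optimal peaks 65.4%. When the search was moved by 1 kb to either side of all optimal summits, 2.85% and 2.98% of windows held a match. At the other intragenic peaks, the median signal was 80.0 where a match was found and 31.8 where none was. At start-site peaks these medians were 83.4 and 59.0.

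The 2 classes were also compared in features that did not define them. None of the 14 start-site summits lay in soft-masked repeat sequence, and 11 of the 108 other intragenic summits did (10.2%). Over all genes 8.27% and 21.8% did. All 14 start-site peaks were overlapped by a peak of the conservative set, as were 94 of the 108 others (87.0%), against 83.5% and 87.1% over all genes. Within the strongest 62686 of both libraries were 13 of the 14 (92.9%) and 87 of the 108 (80.6%), against 77.7% and 82.6% over all genes. Of the 108 other intragenic summits 3 lay in exons and 105 in introns, and none lay within 1 kb of an annotated start of another gene. In the flanks, 12 of 39 did, and no share over all genes stands beside these counts. Inside the genes the motif lay on the gene's strand at 50.7% of peaks with 1 strand assigned (Wilson interval 39.2 to 62.2).

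**Figure D4:**
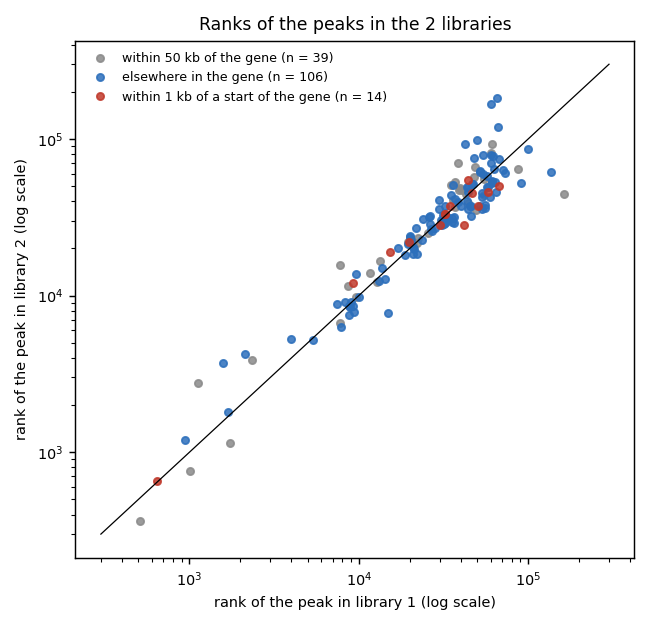
Rank of each peak in library 1 (x axis) and library 2 (y axis), both on log scales, for the 159 peaks covered in both libraries; the line marks equal ranks. The strongest start-site peak, at Rbfox3, has ranks of 647 and 656, and ranks spread apart towards the weak end of the lists.

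Because gene length differs, each gene was read against protein-coding genes of its length class. Rbfox3, Celf4, Rbfox2, Rbfox1 and Elavl2 lay above the upper quartile of their classes. Rbfox3 had 8.53 peaks per 100 kb inside the gene (exact Poisson interval 5.98 to 11.8), Celf4 7.59 (4.70 to 11.6) and Rbfox2 6.14 (3.36 to 10.3). The median of the 768 protein-coding genes of 200 to 500 kb was 2.29, and 6, 11 and 36 of them were denser than Rbfox3, Celf4 and Rbfox2. Rbfox1 had 2.23 (1.54 to 3.11), against a median of 1.08 over the 59 genes longer than 1000 kb, of which 8 were denser. Elavl2 had 4.67 (1.88 to 9.61) and Elavl4 2.70 (0.735 to 6.91), with a median of 2.72 at 100 to 200 kb. Nova1, Elavl3 and Ptbp2 had 0 peaks inside. With 3 counts as the limit of a count of 0 this allows up to 2.41, 8.10 and 4.56 per 100 kb, and the upper ends of the exact Poisson intervals used for the other genes are 2.97, 9.96 and 5.61. A gene without a peak inside was common in the class of Elavl3, where 56.5% of 16931 genes under 50 kb had none and the median was 0. In the class of Ptbp2 15.7% had none, with a median of 3.11, and in that of Nova1 7.16%. Nova2, also under 50 kb, had 2 peaks, or 5.07 per 100 kb (0.614 to 18.3), and 5697 genes of its class were denser.

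**Figure D5:**
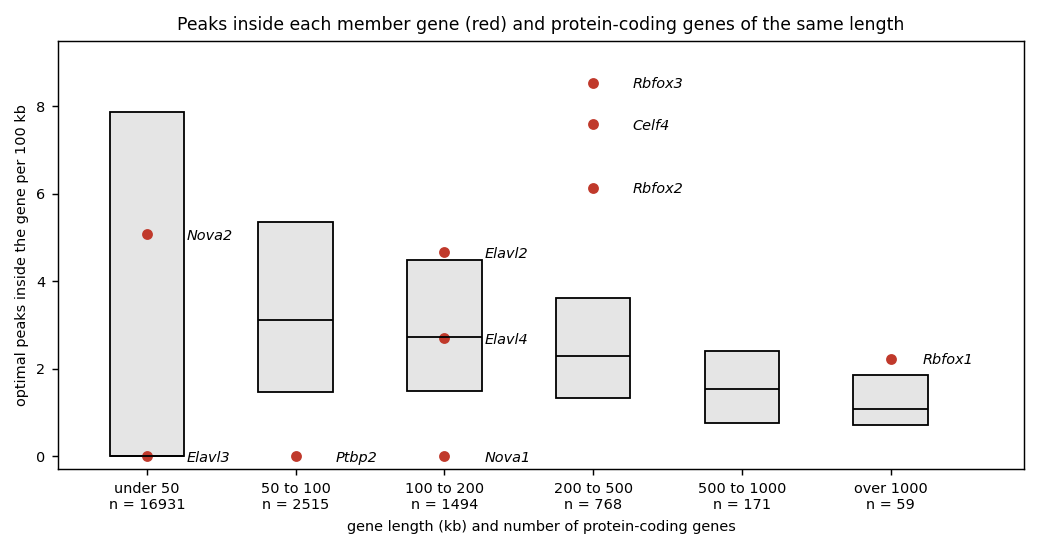
Optimal peaks inside each of the 10 genes per 100 kb (red points) beside protein-coding genes of the same length class (boxes from the lower to the upper quartile, with the median as a line). Rbfox3, Celf4, Rbfox2, Rbfox1 and Elavl2 lie above the box of their class, and Nova1 and Ptbp2 are at 0, below the box of theirs.

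Related genes were read for the same counts. Of 8 relatives from the same families (Elavl1, Ptbp1, Ptbp3, Celf1, Celf2, Celf3, Celf5 and Celf6), 6 had a start-site peak, and Elavl1 and Ptbp3 had none. Their 7 start-site peaks had a median signal of 28.1, and the strongest was at Celf5 with 102.8. The motif was found at 1 of the 7. Ptbp1, the relative that Ptbp2 replaces, had 1 start-site peak with a signal of 17.0 and 13 peaks in its window. Of 11 other splicing and RNA-binding regulators of neural cells (Srrm3, Srrm4, Mbnl1, Mbnl2, Mbnl3, Khdrbs1, Khdrbs2, Khdrbs3, Qk, Msi1 and Msi2), 6 had a start-site peak. Mbnl1, Mbnl2, Qk, Msi2 and Khdrbs1 had none. Here 7 of 9 start-site peaks had the motif, their median signal was 156.9, and the strongest was at Srrm3 with 528.5. All 11 had at least 1 other intragenic peak, against 42.9% of all protein-coding genes. Their median length was 152.5 kb, and 92.8% of protein-coding genes of 100 to 200 kb had a peak inside. Over all protein-coding genes 39.8% had a start-site peak, and 42.9% of start-site peaks had the motif. These shares by gene do not allow for the number of start sites. By start site, 7 of 35 were occupied in the relatives (20%) and 9 of 38 in the other regulators (23.7%). The background by start site was 21.3%.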

How the data were processed

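CTCF ChIP-seq peaks of newborn mouse hindbrain were read from 5 deposited narrowPeak lists on mm10. Per the deposited file descriptions, the authors called peaks on each library and on both together against a control alignment, and derived the conservative (59979 peaks) and optimal sets from these lists. For the aligner, the peak caller and the IDR threshold, names and settings were not given in the sources used here. Each deposited signal value is a score of the caller on an unstated scale, and the deposited summit offset (bp) gave each summit. Files hold no read counts, so depth is unknown here. Intervals cover counting error only, and those of medians the uncertainty of each median with peaks taken as independent. Peaks were assigned with GENCODE vM21, and 9 optimal peaks outside the assembled chromosomes were left out of genome-wide shares. All members are named, with up to 3 start-site and 3 other intragenic peaks and the strongest flanking peak on each side. Further peaks (the 2 weakest at Rbfox3 starts, those just outside 1 kb, and a few others) were chosen after their values were seen. The members and lists were chosen with earlier results of these data known. Repeats are the soft-masked bases of the RefSeq assembly. Motif search and peak assignment were tested on simulated data. Python 3.11.15, numpy 2.4.6, pandas 2.3.3, scipy 1.17.1 and matplotlib 3.10.9 were used. Alternatives covered peak sets, thresholds, distances, start annotation, single libraries and motif settings.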

Additional observations from a re-analysis of the deposited data

Results flagged for a closer look

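Data outside the optimal set held further peaks at these genes. In the windows of the 10 genes, 14 of the 154 peaks of the conservative set had no overlapping optimal peak, in 7 of the genes. The same share over all conservative peaks was not computed, so whether the count is particular to these genes is not known. Their signals ran from 10.01 to 36.5 with a median of 24.2. Celf4 had 4 of them, Rbfox3 3, Elavl2 and Nova2 2 each, and Rbfox2, Elavl3 and Nova1 1 each. Of the 38 start sites without an optimal summit, 18 (47.4%) had a summit of the pooled list within 1 kb, against 33.9% of such start sites over all protein-coding genes. The pooled signal was 22.8 at the first start of Nova1, 14.5 at that of Celf4 and 10.7 at that of Ptbp2.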

How the results depend on the processing

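Of 106 alternative values for 13 results, 92 stayed within their interval or within 1.5 times the count, and 14 moved. Merging summits under 150 bp apart left every value unchanged, so it adds only values that stayed. Some intervals are wide, as for the start-site motif share (26.8 to 73.2%), so staying within them is a weak criterion. With the stronger 50% of the optimal peaks, which keeps fewer peaks by construction, the windows held 72 peaks, 5 start-site peaks at 5 start sites of 3 genes, and 47 other intragenic peaks. The median signal of these other intragenic peaks was 152.1. That of the start-site peaks rose from 64.6 to 179.1, which is the upper end of its interval and was counted as staying. Motif shares were 80% and 78.7%, and densities were 1.66 per 100 kb inside the genes, 4.87 around starts and 1.61 in the rest. With at most 1 mismatch the motif shares were 21.4% at start-site and 35.2% at other intragenic peaks, and with at most 3 the second was 80.6%. For single libraries, each list was cut to its strongest 62686 peaks, the size of the optimal set. Similar window totals are therefore partly fixed by this cut. Without replicate 1 or replicate 2 the windows held 160 to 162 peaks, with 13 to 17 start-site peaks at 10 to 14 start sites of 6 to 8 genes, and 105 to 108 others. Elavl3 and Nova1 gained a start-site peak in library 2 alone, Nova1 also in the conservative set, and Celf4 with a distance of 2.5 kb, while Nova2 lost its own at 500 bp. Motif shares without a replicate were 35.3% to 53.8% and 63.0% to 67.6%, densities 3.84 to 3.88, 12.7 to 16.6 and 3.59 to 3.69 per 100 kb, and motifs on the gene's strand 47.3% to 52.1%. Signal medians were not computed for single libraries. Densities and orientation were varied after the data were seen. No paired analysis was possible because there is 1 group. Read depth is unknown, so weak peaks near the IDR limit are the least certain.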
